A study of Mus musculus with 12 samples.

Results

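The MHC class I and peptide supply genes examined here are the 3 heavy chains H2-K1, H2-D1 and H2-T23, the light chain B2m, the peptide transporter subunits Tap1 and Tap2, the loading bridge Tapbp, the immunoproteasome subunits Psmb8 and Psmb9, and the class I transactivator Nlrc5. They were taken by name, with earlier results of these data known, and all 10 of 10 were found among the 56735 gene names of the count table and left by the filter on low counts, which kept 13724 genes. Their levels were compared by bulk RNA-seq in CD206+ leptomeningeal and perivascular CNS-associated macrophages (CAMs) that had been sorted from the brains of mice after the choroid plexuses were taken out. All adult mice, male and female, had the genotype Mrc1CreERT2/CreERT2:R26tdT/tdT and received tamoxifen, so that the tdTomato reporter (tdT) was switched on in cells that expressed Mrc1 at that time and stayed on in their progeny. Weeks later the mice were gavaged for 7 days with vehicle or with the CSF-1R inhibitor BLZ945 at 200 mg/kg, and cells were sorted 8 weeks after the treatment. The 3 groups were tdT+ cells of vehicle mice, tdT+ cells of BLZ945 mice and tdT- cells of the same BLZ945 mice, with 4 libraries each, named F1, F2, M1 and M2 after the mice. A tdT- cell is one in which the reporter had not recombined, which does not by itself give its origin, and the tdTomato entry of the table was listed at 0 in all 12 libraries and could not be used to check the sort.

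MHC class I molecules show peptides from inside the cell to CD8 T cells and are carried by nearly all nucleated cells. Proteasomes cut proteins into peptides, the Tap1 and Tap2 transporter moves these into the endoplasmic reticulum, and Tapbp holds the transporter next to a heavy chain paired with B2m until a peptide is bound. Interferon raises most of these genes and exchanges constitutive proteasome subunits for the immunoproteasome ones, and Nlrc5 acts on conserved boxes in class I promoters that the class II transactivator Ciita also uses.

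In GRCm39, the build of the count table, 8 of the 10 genes lie on chromosome 17. H2-K1 spans chr17:34214991-34219321 on the minus strand, H2-D1 chr17:35481706-35486475 on the plus strand and H2-T23 chr17:36340665-36343747 on the minus strand. The supply genes sit close together, with Psmb9 at chr17:34400961-34406738, Tap1 at chr17:34406527-34416199, Psmb8 at chr17:34416695-34420428 and Tap2 at chr17:34422501-34435295, while Tapbp lies at chr17:34134873-34148266. B2m is at chr2:121978167-121983564 and Nlrc5 at chr8:95160984-95253900. Tap1 and Psmb9 share 212 exonic bases on opposite strands, and because reads were counted without strand those reads cannot be told apart.

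Promoter sequence was held for 8 of the 10 genes in RefSeq (GRCm38.p6), as 250 bases before and 50 after the start. The 4 short motifs searched on both strands were the interferon-response type GAANNGAAA, the NF-kB type GGGNNTTCC, the X2-type box TGACG and the Y-type box ATTGG, none of which contains another. TGACG followed by ATTGG after 15 to 25 bases was held by 3 of the 8 promoters (H2-K1, H2-D1 and B2m) and by 0.435% of 32851 mouse promoters of the same length. The exact string GAANNGAAA was found in 2 of the 8, against 7.52% of all, and GGGNNTTCC in 2 of the 8, against 5.82% of all. Longer variants of these 2 strings were not searched. The B2m window printed below holds gaaactgaaa and ggaaagtccc, which neither string matches. The counts therefore do not show that the other promoters lack sites of these types. In H2-K1, H2-D1 and B2m the boxes were 20 bases apart, and in the class II gene H2-Aa they were 21 bases apart. Of 15 promoters of further class I machinery genes searched, 2 also held the pair, H2-M3 at 20 bases and H2-Q7 at 19 bases. The 200 bases before the start are printed for H2-K1, H2-D1, B2m and H2-Aa, 5′ to 3′ in the gene's direction, because they hold the paired boxes. The pair was found in 1 of 7 class II promoters searched, that of H2-Aa. Capitals mark the paired boxes and, in H2-K1, H2-D1 and H2-Aa, the NF-kB or interferon-response type motifs. The windows are chr17:34000348-34000547 (minus strand) for H2-K1, chr17:35262894-35263093 (plus strand) for H2-D1, chr2:122147487-122147686 (plus strand) for B2m and chr17:34287824-34288023 (minus strand) for H2-Aa, all in GRCm38.p6.
H2-K1: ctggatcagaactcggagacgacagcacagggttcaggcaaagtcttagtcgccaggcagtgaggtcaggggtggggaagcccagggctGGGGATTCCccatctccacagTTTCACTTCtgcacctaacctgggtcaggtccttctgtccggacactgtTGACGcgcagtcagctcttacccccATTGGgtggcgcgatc
H2-D1: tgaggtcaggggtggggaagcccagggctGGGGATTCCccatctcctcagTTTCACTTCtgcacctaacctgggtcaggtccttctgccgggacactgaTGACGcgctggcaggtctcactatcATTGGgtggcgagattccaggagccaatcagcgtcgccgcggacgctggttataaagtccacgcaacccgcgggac
B2m: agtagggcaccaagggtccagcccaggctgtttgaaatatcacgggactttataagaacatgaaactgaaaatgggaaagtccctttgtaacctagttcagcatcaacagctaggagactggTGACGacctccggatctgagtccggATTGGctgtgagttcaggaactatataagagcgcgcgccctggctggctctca
H2-Aa: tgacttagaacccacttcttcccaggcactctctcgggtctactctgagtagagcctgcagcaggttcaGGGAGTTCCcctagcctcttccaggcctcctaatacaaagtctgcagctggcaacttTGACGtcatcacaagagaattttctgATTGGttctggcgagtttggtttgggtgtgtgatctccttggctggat
The H2-K1 and H2-D1 windows of 300 bases were 91.2% identical over 239 aligned bases. The Tap1 and Psmb9 windows are the 2 strands of one stretch, with 275 bases in common, and neither held a TGACG and ATTGG pair. A match of letters is a description of these windows and not a measured binding site.

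The 12 libraries held 19969308 to 23395058 counts and 14230 to 15866 detected genes. All 8 border macrophage markers, Mrc1 among them, were at 100 or more normalized counts in every library. Their summed level was 332000 to 376000 in vehicle tdT+, 389000 to 431000 in BLZ945 tdT+ and 215000 to 283000 in BLZ945 tdT- libraries. Summed microglial markers (P2ry12, Tmem119, Sall1 and Siglech, all 4 called higher in tdT- cells in both comparisons) were 18200 to 26900, 33500 to 35000 and 75600 to 175000 in the same order, and highest in tdT- library M1. The 6 neutrophil markers summed to 423000 in tdT- library F2 and to at most 69.4 in each of the other 11, and that library also held the most monocyte marker counts, 18900. The 5 NK cell markers summed to 680 in tdT- library F2, all of it from Nkg7, and to at most 105 in each of the other 11, and Ncr1, Gzma and Prf1 were at 0 in all 12. B cell markers summed to 6720 to 10100 in vehicle tdT+, 5130 to 6150 in BLZ945 tdT+ and 9010 to 11500 in tdT- libraries. T cell markers summed to 2640 to 3580, 1470 to 3120 and 4.22 to 640 in the same order. Dendritic cell markers summed to 2960 to 6550, 1160 to 3740 and 985 to 5680. In every library, 0 of 6 T cell, 1 of 4 B cell and 2 of 6 dendritic cell markers were at 100 or more normalized counts. Over all 12 libraries Cd3e had 55 raw counts, Clec9a 115 and Xcr1 32. These sums thus rest unevenly on the genes of each list and do not by themselves show that such cells were present. Red blood cell markers reached 8780, 15800 and 36200, the last in tdT- library F2. Other results below are therefore also given without tdT- library F2 or without F2 and M1 where that changes a call, and the part of these other cell types in the results was not tested. In bulk RNA, fewer cells of a type and less RNA per cell cannot be told apart.

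In TPM, the counts per length scaled to the same sum in every library so that genes can be compared, the 10 genes ran from the most abundant to rare ones. B2m stood at 24000 TPM averaged over the 12 libraries, the rank 4 among the 13724 tested genes. H2-D1 followed at 3935 TPM (rank 25), H2-K1 at 1521 TPM (rank 63), Tapbp at 537 TPM (rank 224), H2-T23 at 414 TPM (rank 298) and Psmb8 at 315 TPM (rank 387). Tap2 had 116 TPM, Psmb9 111 TPM and Tap1 58.2 TPM. Nlrc5, at 3.34 TPM, was the least abundant, with rank 9713. Each gene was above the next in all 12 libraries, except H2-T23 over Psmb8 in 11 and Tap2 over Psmb9 in 9, so that Tap2 and Psmb9 did not separate beyond their spread. B2m was at 3.42 to 4.68 times the summed TPM of the 3 heavy chains across all libraries. H2-D1 made up 61.6 to 68.8% of the normalized counts of the 3 chains. H2 genes resemble each other, and reads that map to several copies were not counted. The ranks and shares of the heavy chains and the B2m ratio thus rest on uniquely mapped reads, and the loss per chain was not measured. Together the 10 genes took 1.43 to 1.64% of all counts in vehicle tdT+ libraries, 1.37 to 1.58% in BLZ945 tdT+ libraries and 1.46 to 1.72% in tdT- libraries.

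**Figure D1:**
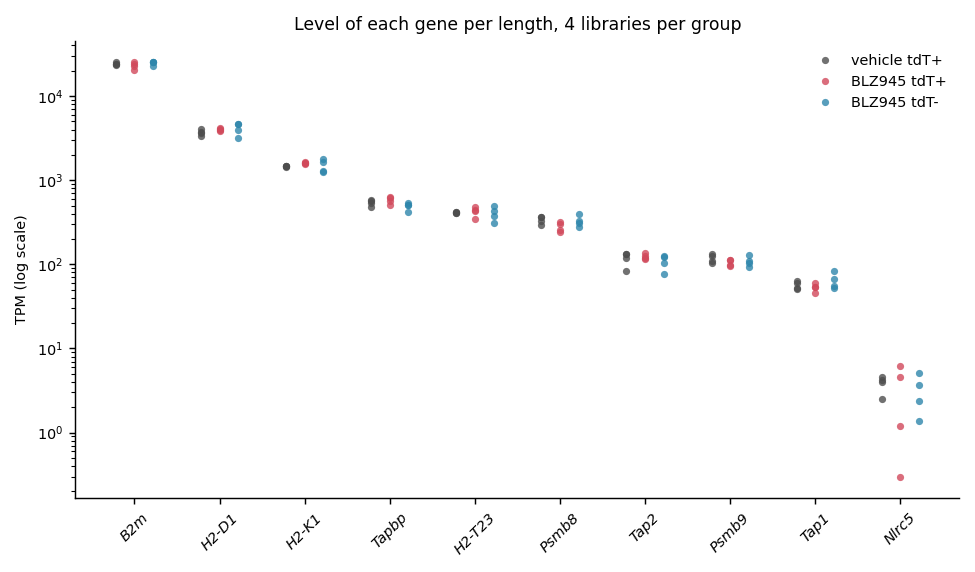
Level of each gene in TPM (counts per length scaled to the same sum in each library, vertical axis, log scale), one point per library and one color per group, with 4 libraries in each group and the genes in the order of their mean. B2m lies highest, from 20680 to 25740 TPM, and Nlrc5 lowest, from 0.295 to 6.23 TPM, and the colors overlap within each gene except in H2-K1, where vehicle tdT+ libraries (1417 to 1486 TPM) lie below BLZ945 tdT+ libraries (1553 to 1668 TPM).

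These levels varied little between mice. The within-group SD of log2(normalized count + 1), pooled over the 3 groups, was 0.119 for B2m, 0.139 for H2-K1 and 0.145 for Tapbp. It was 0.266 at most, for Tap2, among the 9 genes other than Nlrc5, all 9 of which lay below 0.275, the median of the 3538 genes with a mean normalized count of at least 1000. That set was not matched for level, and how far the lower spread goes with higher counts was not tested. For Nlrc5 the SD was 1.25, and its highest library stood 19.9-fold above its lowest.

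None of the 10 genes passed the main test (DESeq2 Wald test by group, adjusted p of at most 0.05) in any of the 3 comparisons. The main test did not use the pairing of tdT- and tdT+ cells by mouse. With the mouse as replicate block, Psmb8 alone passed between these cells (DESeq2 Wald test, adjusted p = 0.014). In the main test, 0 of 10 were called between tdT- and tdT+ cells of BLZ945 mice, beside 2.92% of all tested genes called higher and 3.57% called lower. Of the 10, 3 had an unadjusted p under 0.05. Between BLZ945 tdT+ and vehicle tdT+ cells, 0 of 10 were called, beside 0.484% higher and 0.477% lower, and 1 of 10 had an unadjusted p under 0.05. Between tdT- and vehicle tdT+ cells, 0 of 10 were called, beside 3.29% higher and 3.51% lower, with 1 of 10 at an unadjusted p under 0.05. By edgeR's quasi-likelihood test 0 of 10 were called in each comparison as well. The median log2 fold change of the 10 genes was 0.17, -0.02 and 0.10 in these comparisons, and that of all tested genes 0.00, 0.03 and 0.03. For the 9 genes other than Nlrc5, the 95% Wald interval lay within 2-fold of no change in every comparison. It lay within 1.5-fold for 7, 9 and 8 genes. Each group enters 2 of the 3 comparisons, which are therefore not independent of each other. When a shrunken change of 2-fold or more was also demanded, 0 of 10 qualified in each comparison, beside 2.31%, 0.169% and 2.57% of all tested genes. Groups did not overlap for 1 of 10 (9.48% of all genes), 1 of 10 (6.70%) and 0 of 10 (9.73%).

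**Figure D2:**
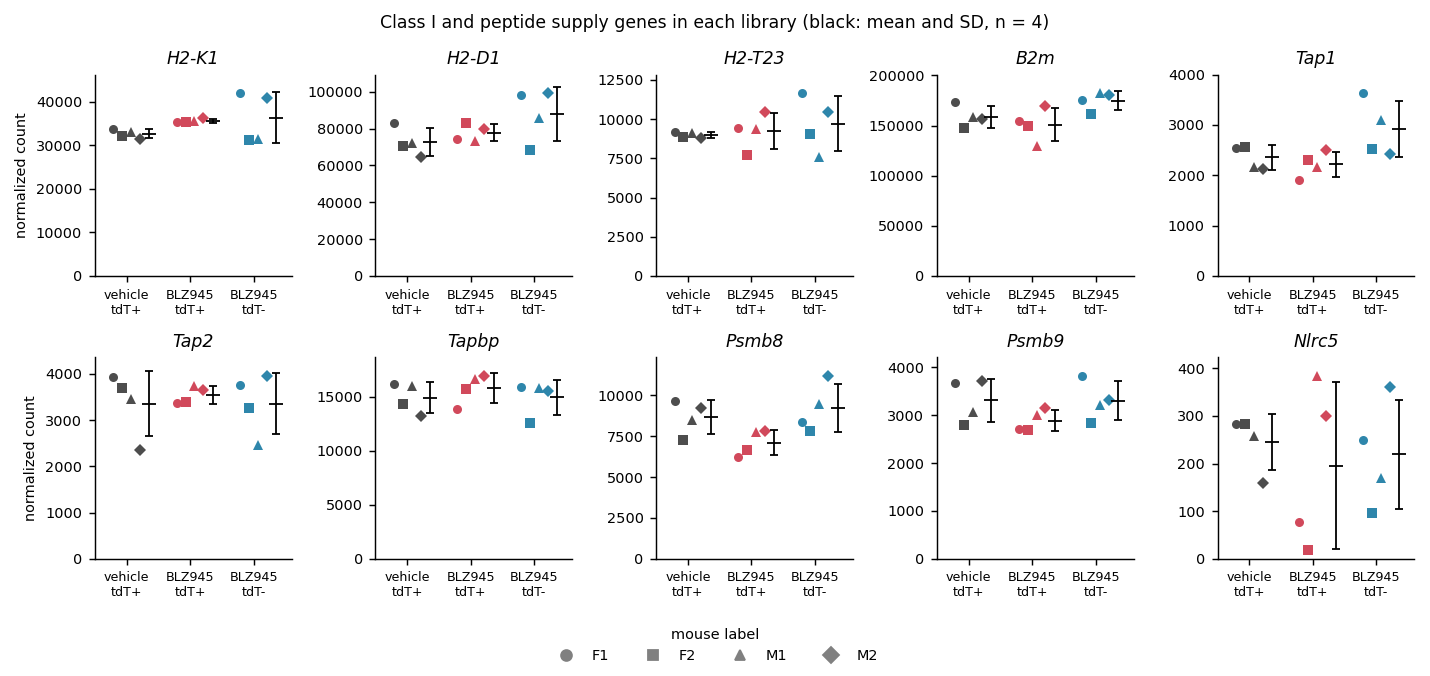
Normalized counts of each of the 10 genes (vertical axes, linear from 0) by group, with one symbol per mouse label and the mean and SD of 4 libraries in black. The H2-K1 values of the vehicle and BLZ945 tdT+ groups lie close together, at 31421 to 36356, while the tdT- values spread from 31176 to 42071.

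The heavy chains carry the peptide. H2-K1, a classical class I chain, had 33757, 32170, 33128 and 31421 normalized counts in the vehicle tdT+ libraries F1, F2, M1 and M2, 35290, 35269, 35626 and 36356 in BLZ945 tdT+ and 42071, 31176, 31438 and 40868 in tdT- libraries. All BLZ945 tdT+ values were above all vehicle values by a small margin, as in 6.70% of tested genes, and the tdT- libraries F1 and M2 were above all other libraries whereas F2 and M1 were among the lowest. The log2 fold change was 0.13 ± 0.10 (SE, n = 4 per group) for BLZ945 tdT+ against vehicle tdT+ cells (adjusted p = 0.954) and 0.03 ± 0.10 for tdT- against BLZ945 tdT+ cells (adjusted p = 0.967, 95% interval -0.17 to 0.23). Without tdT- libraries F2 and M1, a choice made after seeing the data, the latter was 0.21 with an adjusted p of 0.0019, and 0.34 with an adjusted p of 2.87e-08 against vehicle cells, while leaving out F2 alone or M1 alone gave 0.09 (adjusted p = 0.751) and 0.10 (adjusted p = 0.761). Removing these libraries also removes both low values, so that the remaining 2 tdT- libraries differ little from each other.

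H2-D1, the other classical chain, read 82892, 70709, 72272 and 64671 in vehicle tdT+, 74209, 83125, 73551 and 79958 in BLZ945 tdT+ and 98211, 68368, 85880 and 99435 in tdT- libraries. In 3 of the 4 tdT- libraries H2-D1 was above every tdT+ library, and F2, the library with neutrophil markers, was below all but 1 of them. The tdT- cells differed from vehicle tdT+ cells by 0.28 ± 0.11 on the log2 scale (adjusted p = 0.15, 95% interval 0.05 to 0.50) and from BLZ945 tdT+ cells by 0.18 ± 0.11 (adjusted p = 0.504). Without library F2 these became 0.38 (adjusted p = 0.00116) and 0.28 (adjusted p = 0.0344). For BLZ945 tdT+ against vehicle tdT+ cells the value was 0.10 ± 0.11 (adjusted p = 1).

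H2-T23 encodes Qa-1, a nonclassical chain that shows class I leader peptides to NKG2 receptors. Its normalized counts ran from 8817 to 9176 in vehicle tdT+, from 7686 to 10467 in BLZ945 tdT+ and from 7594 to 11672 in tdT- libraries. The groups overlapped, and the log2 fold changes were between 0.04 and 0.11 with an SE of 0.14.

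B2m, the light chain that every class I molecule needs, had 173578, 147310, 158612 and 156110 normalized counts in vehicle tdT+, 154645, 149676, 129287 and 169263 in BLZ945 tdT+ and 175125, 161514, 182676 and 180774 in tdT- libraries. In each of the 4 BLZ945 mice the tdT- value was above the tdT+ value, and only the lowest tdT- library fell into the range of the tdT+ ones. The log2 fold change was 0.22 ± 0.09 (adjusted p = 0.125, 95% interval 0.05 to 0.38) between these groups and 0.14 ± 0.09 (adjusted p = 0.461) between tdT- and vehicle tdT+ cells. It passed the test in 1 of the single-library omissions, without BLZ945 tdT+ library M2 (0.28, adjusted p = 0.0278).

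Among the transporter and loading genes, Tap1 had the largest estimated difference. It read 2550, 2571, 2171 and 2122 in vehicle tdT+, 1897, 2308, 2164 and 2498 in BLZ945 tdT+ and 3638, 2531, 3092 and 2417 in tdT- libraries. In tdT- cells, 3 values were above all BLZ945 tdT+ values and M2 was not. The log2 fold change was 0.40 ± 0.17 for tdT- against BLZ945 tdT+ cells (adjusted p = 0.161) and 0.31 ± 0.17 against vehicle cells (adjusted p = 0.351). Tap2, its partner in the transporter, ran from 2351 to 3922 in vehicle tdT+, 3364 to 3739 in BLZ945 tdT+ and 2460 to 3959 in tdT- libraries, with a log2 fold change of -0.08 ± 0.19 for tdT- against BLZ945 tdT+ cells (adjusted p = 0.943). Tapbp, or tapasin, ran from 13166 to 16117, 13820 to 16921 and 12524 to 15878 in the same order and had -0.08 ± 0.11 (adjusted p = 0.865) for that comparison and 0.00 ± 0.11 against vehicle cells.

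Psmb8, the immunoproteasome subunit that replaces Psmb5, came closest to the threshold. Its normalized counts were 9672, 7269, 8499 and 9231 in vehicle tdT+, 6240, 6646, 7755 and 7803 in BLZ945 tdT+ and 8391, 7804, 9494 and 11193 in tdT- libraries. Every tdT- value was above every BLZ945 tdT+ value, though by about 1 normalized count between the closest libraries. This held for 1 of the 10 genes and for 9.48% of all tested genes. The log2 fold change was 0.37 ± 0.14 (adjusted p = 0.0849, 95% interval 0.10 to 0.65). Because both samples came from the same mice, the fit with the mouse as replicate block applies to this comparison, and there Psmb8 was called at 0.37 (DESeq2 Wald test, adjusted p = 0.0140). Without the block it was not called by edgeR's quasi-likelihood test (adjusted p = 0.224) or by DESeq2 with TMM factors (adjusted p = 0.119). Deviations from the group means correlated little within a mouse, at r = 0.0115 to 0.0375 over 9591 genes. Library M2 carried part of this difference, as the unblocked value without tdT- library M2 was 0.27 (adjusted p = 0.293), whereas without F2 it was 0.44 (adjusted p = 0.0277). BLZ945 tdT+ cells had -0.29 ± 0.14 against vehicle tdT+ cells (adjusted p = 0.558), lower in 4 of 4 same-labelled pairs of different mice, and tdT- cells 0.09 ± 0.14 (adjusted p = 0.892).

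Psmb9, which replaces Psmb6, also had its lowest group mean in BLZ945 tdT+ cells. It ran from 2789 to 3705 in vehicle tdT+, 2695 to 3138 in BLZ945 tdT+ and 2835 to 3822 in tdT- libraries. The log2 fold change was 0.19 ± 0.14 (adjusted p = 0.612) for tdT- against BLZ945 tdT+ cells and -0.20 ± 0.14 (adjusted p = 0.910) for BLZ945 tdT+ against vehicle tdT+ cells.

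Nlrc5, the transactivator of class I genes, was measured poorly. It had 283, 283, 258 and 160 normalized counts in vehicle tdT+, 76.4, 19.4, 385 and 301 in BLZ945 tdT+ and 250, 96.0, 170 and 361 in tdT- libraries. The groups overlapped widely, and the 95% interval of the fold between tdT- and BLZ945 tdT+ cells ran from 0.411 to 3.07, so that a difference of 2-fold was not detectable at this spread. In BLZ945 tdT+ cells both F libraries were low and both M libraries high, and the difference between BLZ945 tdT+ and vehicle tdT+ cells was 3.28 larger in M than in F on the log2 scale (edgeR interaction test, unadjusted p = 0.0226, adjusted p = 0.9999). No other gene of the 10 had an unadjusted p under 0.05 for that term in either comparison tested, and 0 of 10 passed after adjustment, as did 0 of all tested genes by edgeR.

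**Figure D3:**
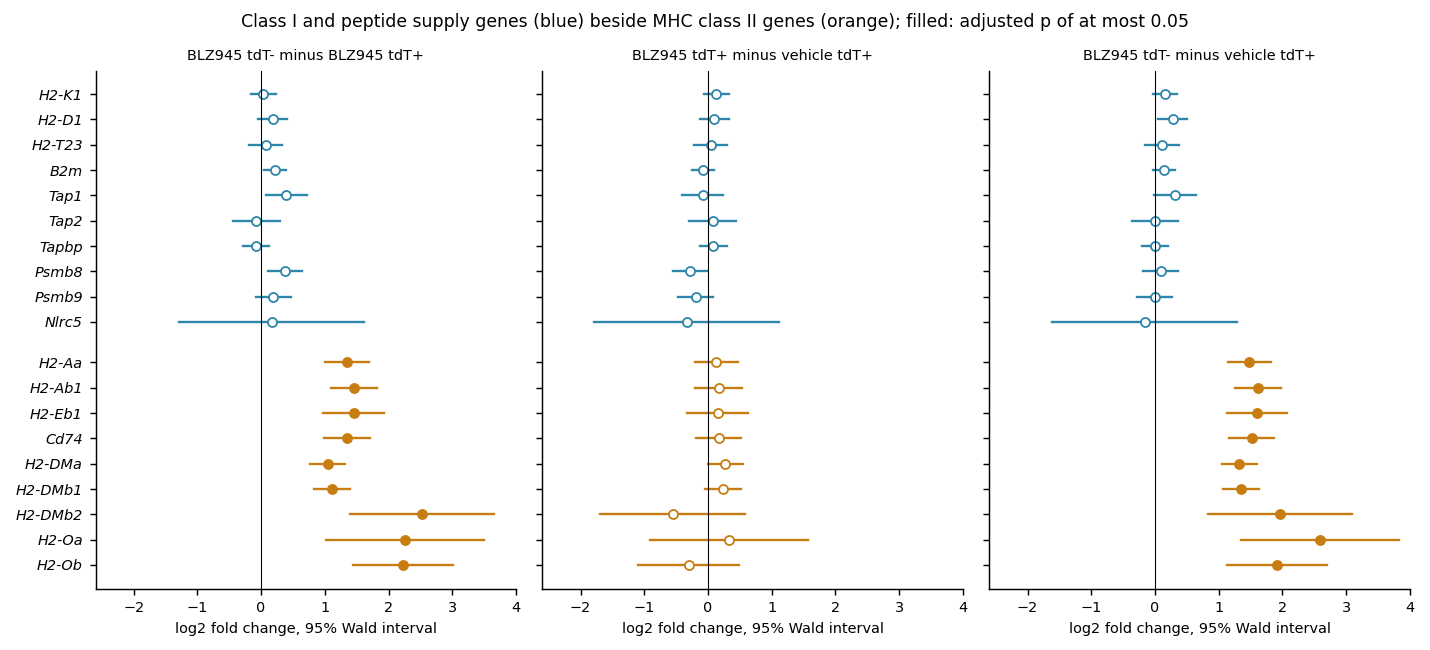
Log2 fold changes with 95% Wald intervals (horizontal axes) for the 10 class I and peptide supply genes (blue) and 9 MHC class II genes (orange) in the 3 comparisons, with filled circles at an adjusted p of at most 0.05. No blue circle is filled, whereas all 9 orange ones are in both comparisons of tdT- cells, from 1.05 to 2.52 against BLZ945 tdT+ cells.

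The MHC class II genes, which show peptides from outside the cell to CD4 T cells, changed in the same libraries. The paper had reported class II-related genes as higher in tdT- cells from these libraries, and the list was partly chosen on that ground. Its calls are therefore given as values and not as a test. All 9 of 9 tested were called higher in tdT- than in BLZ945 tdT+ cells, beside 2.92% of all tested genes. H2-Ab1 was at 1.46 ± 0.18 on the log2 scale (adjusted p = 1.11e-12), H2-Aa at 1.35 ± 0.17 and the invariant chain Cd74 at 1.35 ± 0.18. All 9 were also called higher against vehicle tdT+ cells, beside 3.29% of all tested genes. In BLZ945 tdT+ against vehicle tdT+ cells 0 of 9 were called, beside 0.484% called higher. The call of H2-Oa against BLZ945 tdT+ cells ended by edgeR (adjusted p = 0.104) and without F2 and M1 (0.0935). Against vehicle cells edgeR did not call H2-Oa (0.0565) or H2-DMb2 (0.105), and the DESeq2 call of H2-DMb2 ended without tdT- F1 (0.109), vehicle F1 (0.0551) or vehicle M2 (0.0611). The lowest class II interval bound against BLZ945 tdT+ cells, 0.77 for H2-DMa, was above the highest class I bound, 0.73 for Tap1, with Nlrc5 (up to 1.62) as the exception. H2-Aa, whose paired boxes are printed above, had an interval of 1.01 to 1.69, and H2-K1 one of -0.17 to 0.23. Because the class II list was partly chosen on these libraries, the class I and class II intervals are set side by side as a description and not as a test. Ciita, the class II transactivator, was itself low and variable, with 42.2 to 1178 normalized counts in tdT- libraries, and had 0.79 ± 0.68 (adjusted p = 0.702).

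Beyond the 10 genes, 2 proteasome genes were called higher in tdT- than in BLZ945 tdT+ cells by DESeq2 and by edgeR. Psme2, a subunit of the PA28 cap that opens the proteasome and is raised by interferon gamma, had 4641, 3444, 3722 and 3473 normalized counts in vehicle tdT+, 3289, 3165, 3403 and 3447 in BLZ945 tdT+ and 4920, 4429, 5322 and 5343 in tdT- libraries. Every tdT- value was above every BLZ945 tdT+ value. Its log2 fold change was 0.59 ± 0.12 (adjusted p = 1.06e-04, by edgeR 0.0175), and 0.39 ± 0.12 against vehicle cells (adjusted p = 0.0297, by edgeR 0.139, and 0.0641 without F2 and M1). Of 8 single-library omissions, 6 ended the call against vehicle cells, and it stayed only without vehicle F1 or tdT- F2. Psmb6, the constitutive subunit that Psmb9 replaces, had 2615, 2356, 2569 and 2471 in BLZ945 tdT+ and 3198, 3527, 3876 and 3618 in tdT- libraries, without overlap, and rose by 0.51 ± 0.11 (adjusted p = 2.95e-04, by edgeR 0.0292). Against vehicle cells, at 2647 to 3276, it had 0.26 ± 0.11 (adjusted p = 0.187).

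By list, 1 of 7 immunoproteasome and PA28 genes was called higher and 0 lower between tdT- and BLZ945 tdT+ cells, with a median log2 fold change of 0.30 beside 0.00 for all tested genes. Of all tested genes, 2.92% were called higher and 3.57% lower in this comparison. Counts of 1 or 2 genes in short lists are given as values and not as a result about the list. Psme1, the other PA28 chain, had 0.32 ± 0.16 (adjusted p = 0.278) and Psmb10 0.26 ± 0.18 (adjusted p = 0.535). Of 14 constitutive 20S proteasome genes, 2 were called higher (Psmb6 and Psmb1, the latter at 0.45 ± 0.15, adjusted p = 0.0441, 0.174 with the replicate block, 0.144 by edgeR and 0.118 without F2) and 0 lower, with a median of 0.29. The call of Psmb1 ended in 5 of 8 single-library omissions and stayed without BLZ945 tdT+ F1, tdT- F1 or tdT- M1. Psmb5 had 0.42 ± 0.19 (adjusted p = 0.234) and Psmb7 0.12 ± 0.24 (adjusted p = 0.928). In BLZ945 tdT+ against vehicle tdT+ cells, 0 of these 21 genes were called, beside 0.484% of all tested genes called higher and 0.477% lower. Both medians were below 0, at -0.20 and -0.18. Summed microglial markers were higher in every tdT- library than in every tdT+ library, and their part in these differences was not tested.

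Since immunoproteasome and constitutive subunits take each other's place, their ratio was compared in each library, as counts per kilobase. Psmb8 to Psmb5 was 1.96, 2.27, 1.71 and 2.06 in vehicle tdT+, 1.31, 1.76, 1.88 and 2.28 in BLZ945 tdT+ and 1.55, 1.32, 1.85 and 2.21 in tdT- libraries. Psmb9 to Psmb6 was 0.572, 0.539, 0.505 and 0.660, then 0.531, 0.585, 0.596 and 0.650, and 0.611, 0.411, 0.424 and 0.468 in tdT- libraries. Psmb10 to Psmb7 was 3.75 to 6.32, 4.13 to 6.67 and 4.94 to 9.52. For 3 of the 4 tdT- libraries the ratio of Psmb9 to Psmb6 was below every tdT+ library, and in F1 it was not. None of the 9 ratio comparisons passed a two-sided exact permutation test over 70 assignments of the libraries. The lowest p was 0.114, for Psmb9 to Psmb6 in tdT- against BLZ945 tdT+ cells (log2 difference -0.32, lower in 3 of 4 mice, adjusted p = 0.643 over 9 tests), and the smallest p the design allows was 0.0286. The larger estimates of Psmb8 and Psmb5 in tdT- cells thus left their ratio at a log2 difference of -0.06 (p = 0.80 by the exact permutation test).

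**Figure D4:**
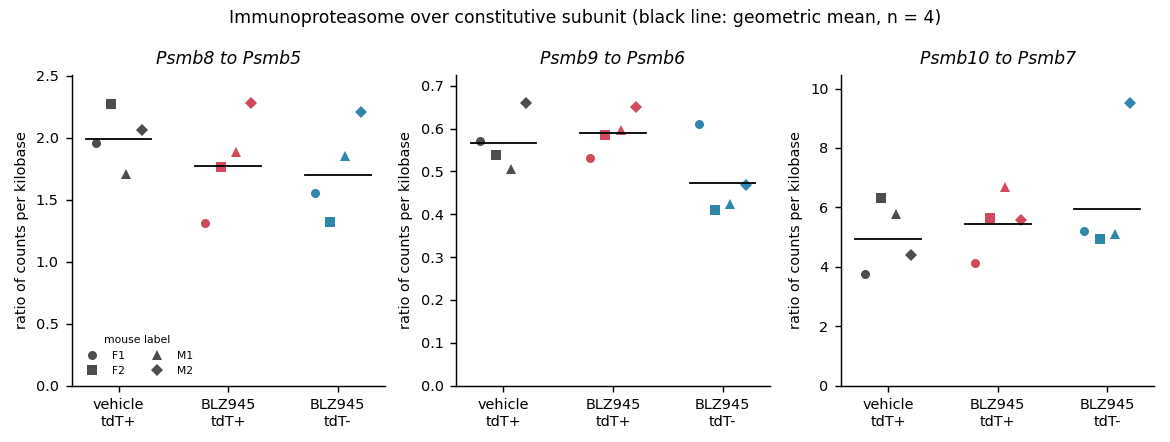
Ratio of counts per kilobase of each immunoproteasome subunit to the constitutive subunit it replaces (vertical axes, linear from 0) by group, with one symbol per mouse label and the geometric mean of 4 libraries as a black line. The groups overlap in all 3 panels, and tdT- library M2 lies apart in Psmb10 to Psmb7 at 9.52.

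Among 13 peptide loading genes, 1 was called higher between tdT- and BLZ945 tdT+ cells, beside 2.92% of all tested genes. It was H13, a signal peptide peptidase, at 0.48 ± 0.15 (adjusted p = 0.0249, 0.0700 with the replicate block, 0.105 by edgeR and 0.0896 without F2). That call too ended in 5 of 8 single-library omissions and stayed without BLZ945 tdT+ F1, tdT- F1 or tdT- M1. Among the chaperones that fold class I chains, Hspa5 and Calr were called in tdT- against vehicle cells. Hspa5, or BiP, had 29050, 35156, 30750 and 26459 normalized counts in vehicle tdT+, 44026, 43584, 46052 and 48900 in BLZ945 tdT+ and 42877, 31927, 44580 and 44734 in tdT- libraries. All BLZ945 tdT+ values and 3 of 4 tdT- values were above every vehicle value. It rose by 0.59 ± 0.12 in BLZ945 tdT+ cells (adjusted p = 1.37e-04, but 0.207 by edgeR) and by 0.43 ± 0.12 in tdT- cells (adjusted p = 0.00468, by edgeR 0.0981, and 0.0698 in the fit with the replicate number as block). Calr, calreticulin of the loading complex, rose by 0.46 ± 0.13 in tdT- against vehicle tdT+ cells (adjusted p = 0.00877, by edgeR 0.107, 0.0617 without vehicle M2 and 0.0516 without tdT- M2) and had 0.38 ± 0.13 in BLZ945 tdT+ cells (adjusted p = 0.156). Pdia3, its partner ERp57, had 0.32 ± 0.11 in BLZ945 tdT+ cells (adjusted p = 0.203, and 0.0126 when only the libraries of both groups entered the fit), and 0.26 ± 0.11 in tdT- against vehicle cells (adjusted p = 0.197, and 0.0209 without F2). H13 was called in tdT- against vehicle cells as well, at 0.63 ± 0.15 (adjusted p = 0.00101). Canx, Tapbpl and the trimming peptidase Erap1 were not called in any comparison, with Erap1 nearest at 0.67 ± 0.24 in tdT- against vehicle cells (adjusted p = 0.0689). Erap1 was called there without F2 and M1 (0.89, adjusted p = 0.0238), without M1 alone (adjusted p = 0.0384) and without vehicle F2 (adjusted p = 0.0103), and Canx was called lower than in BLZ945 tdT+ cells without tdT- F1 (-0.34, adjusted p = 0.0230). Of 8 cytosolic peptidases, 0 were called in each comparison.

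Further chains gave no call among the classical and nonclassical genes named. H2-M3, which shows formylated peptides, had 0.37 ± 0.14 in tdT- against vehicle tdT+ cells (adjusted p = 0.119, and 0.0440 without vehicle F1), H2-T22 0.23 ± 0.25 and H2-Q4 -0.19 ± 0.54. H2-Q7 read 331, 306, 240 and 215 in vehicle tdT+, 205, 182, 140 and 158 in BLZ945 tdT+ and 306, 239, 219 and 399 in tdT- libraries. The BLZ945 tdT+ values were below all others, and neither comparison passed (adjusted p = 0.613 and 0.206). H2 genes resemble each other, reads that map to several copies were not counted, and these lower counts are therefore uncertain. Of 16 class I and class I-like genes tested out of 23, 2 were called lower between tdT- and BLZ945 tdT+ cells, beside 3.57% of all tested genes. Neither of the 2 presents peptides. Fcgrt, the neonatal Fc receptor that recycles IgG and albumin, had 33623, 31886, 28846 and 28352 in vehicle tdT+, 23528, 26644, 27118 and 26565 in BLZ945 tdT+ and 12310, 9689, 13609 and 13947 in tdT- libraries. The tdT- values were the lowest 4 of the 12. It fell by 1.07 on the log2 scale against BLZ945 tdT+ cells (SE 0.11, adjusted p = 3.20e-18) and by 1.31 against vehicle cells. Hfe, which binds the transferrin receptor, fell by 0.45 (SE 0.12, adjusted p = 0.00613, by edgeR 0.0573). Both proteins pair with B2m, the light chain described above.

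Of 16 genes for the transcription of class I, 1 was called higher in tdT- cells in each comparison, Irf8, a factor of macrophage identity, at 0.56 ± 0.15 against BLZ945 tdT+ cells (adjusted p = 0.00631, 0.0553 with the replicate block, 0.0769 by edgeR and 0.0519 without BLZ945 tdT+ M1) and 0.50 ± 0.15 against vehicle cells (adjusted p = 0.022, by edgeR 0.131, and 0.0755 without F2 and M1). Against vehicle cells the call of Irf8 ended in 5 of 8 single-library omissions and stayed without vehicle M1, tdT- F1 or tdT- F2. Irf1 had 0.28 ± 0.13 (adjusted p = 0.22) and Rfx5 0.93 ± 1.0 (adjusted p = 0.804) between tdT- and BLZ945 tdT+ cells. Of 9 interferon receptor and Jak genes, Ifngr1 was called, higher by 0.43 ± 0.10 in tdT- against vehicle cells (adjusted p = 8.42e-04, by edgeR 0.0563). Of 22 interferon-stimulated genes, 0 were called higher and 2 lower between tdT- and BLZ945 tdT+ cells, with a median of -0.24, and 0 were called higher and 2 lower against vehicle cells, with a median of -0.36. For each list of this paragraph, the shares of all tested genes were 2.92% higher and 3.57% lower against BLZ945 tdT+ cells. Against vehicle cells they were 3.29% higher and 3.51% lower. Gbp7, a guanylate-binding protein, had 4672, 2620, 5429 and 5420 normalized counts in BLZ945 tdT+ and 2469, 1913, 2230 and 2432 in tdT- libraries, without overlap, and fell by 1.0 on the log2 scale (SE 0.21, adjusted p = 1.06e-04, by edgeR 0.0142). Iigp1, an immunity-related GTPase, fell by 0.90 (SE 0.26, adjusted p = 0.0116, by edgeR 0.0788, 0.186 without tdT- libraries F2 and M1, 0.0778 without BLZ945 tdT+ M1 and 0.0734 without BLZ945 tdT+ M2). Against vehicle cells, Gbp7 fell by 0.64 (adjusted p = 0.0403, by edgeR 0.107, and 0.105 without F2) and Bst2, or tetherin, by 0.50 (adjusted p = 0.0428, by edgeR 0.125, and 0.114 without F2). Of 8 single-library omissions, 7 ended the call of Gbp7, which stayed without tdT- F1, and 5 that of Bst2, which stayed without vehicle F2, tdT- F1 or tdT- M2. Of 4 tested myeloid receptor genes of the Lilr group, whose binding of class I was not examined here, 1 was called between tdT- and BLZ945 tdT+ cells. This was Lilrb4a, lower by 1.58 (SE 0.52, adjusted p = 0.0416, 0.0559 with the replicate block, 0.15 by edgeR and 0.0844 without F2 and M1). Its call ended in 5 of 8 single-library omissions and stayed without BLZ945 tdT+ F2, tdT- F1 or tdT- F2.

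Genes with a pattern most like each of the 10 were sought by Pearson's r of log2(normalized count + 1) over the 12 libraries, among 9591 genes with a mean of at least 100, as a description. H2-K1 was most like Anxa7 (r = 0.926) and Abcf3 (r = 0.920), and H2-D1 most like Pnp (r = 0.926) and Dhrs7 (r = 0.922). The nearest class I gene to H2-K1 was H2-D1, at place 14 (r = 0.791), and then H2-T23, at place 31 (r = 0.746). Nearest to H2-T23 were Krit1 (r = 0.875) and Zmat5 (r = 0.867), and to B2m Tmem276 (r = 0.912) and Gins4 (r = 0.899). For Tap1 they were Nubp2 (r = 0.874) and Eif3j1 (r = 0.858), for Tap2 Zfp677 (r = 0.971) and Eri2 (r = 0.918), and for Tapbp 4921524J17Rik (r = 0.916) and Rab31 (r = 0.886). Psmb8 was most like Spsb2 (r = 0.919) and Cmc4 (r = 0.890), Psmb9 most like Phf5a (r = 0.862) and Dhx15 (r = 0.852), with Psmb8 at place 39 (r = 0.728). Nlrc5 was most like Zfp511 (r = 0.922) and Camsap1 (r = 0.897). No gene of the 10 was among the 2 nearest of another, and all points share the same libraries.

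**Figure D5:**
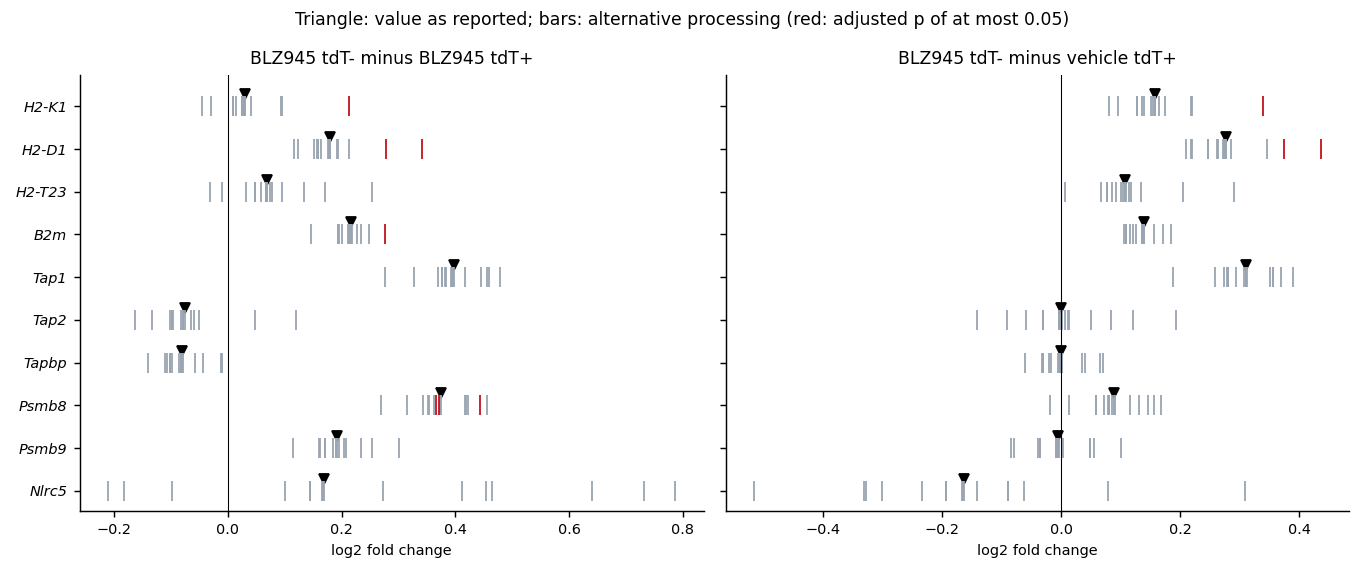
Log2 fold changes (horizontal axes) of the 10 genes in tdT- against BLZ945 tdT+ and against vehicle tdT+ cells, as reported (triangles) and under each alternative processing (vertical bars, red at an adjusted p of at most 0.05). Red bars occur for H2-K1, H2-D1, B2m and Psmb8 on the left and for H2-K1 and H2-D1 on the right, all above 0.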

How the data were processed

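RNA of sorted cells was amplified with SMART-Seq chemistry and sequenced on an Illumina instrument. Per the labels, the authors used bcl2fastq 2.20, STAR 2.7.11a and featureCounts 2.0.6 (which tool did what is taken from the methods and the file header). The deposited table holds raw counts per gene name for a GENCODE annotation of GRCm39 with tdTomato added, over exons, without strand and without multi-mapping reads. Amplified reads are not independent molecules, so precision rests on the spread between mice. One library was assigned to vehicle M2 by its library number, because its column name carries another mouse label.

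The members and lists were chosen with earlier results of these data known. From the counts, genes with fewer than 10 counts in 75% or more of the libraries were removed. DESeq2 1.42.0 was fitted to all 12 libraries by group with median-of-ratios size factors, and two-sided Wald p-values were adjusted by Benjamini-Hochberg over all tested genes (called at 0.05 or less). Values are unshrunken log2 fold changes ± SE with 95% intervals. Ratios were compared by exact permutation tests, and the interaction with the letter of the mouse label by edgeR 4.0.16. TPM was computed from the counts and the exon length of the table. In simulated counts DESeq2 made more false calls than its adjusted p of 0.05 allows. edgeR's quasi-likelihood test stayed below that level and recovered fewer true changes. Pairs of tdT- and BLZ945 tdT+ libraries come from the same mouse by the labels; their deviations from the group means correlated at r = 0.0115 to 0.0375 over 9591 genes. Alternatives were edgeR, TMM factors, other filters, fewer libraries, the letter as covariate, the mouse as replicate block and the omission of libraries. Genes named were the 10 members, 18 further genes of the machinery, up to 4 other called genes per list and comparison with a mean of at least 100, and the 2 nearest genes by pattern. A further machinery gene and a microglial marker of the lists are not reported here.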

Additional observations from a re-analysis of the deposited data

Results flagged for a closer look

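Among 39 sets of 4 libraries (10 genes and 3 ratios in 3 groups), 2 held a library far from the other 3 by Dixon's test, and chance alone flags about 1 in 20 sets. Tapbp in tdT- library F2 had 12524 normalized counts, below 15481 to 15878 in the other tdT- libraries (rounded to 12500 in the list of such values). F2 is the library with neutrophil markers, and their part in the low value was not tested. The ratio of Psmb10 to Psmb7 in tdT- library M2 was 9.52, above 4.94 to 5.19 in the other tdT- libraries. In that library Psmb10 had 3982 normalized counts, the highest of the 12, and Psmb7 840, the lowest of the tdT- libraries.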

How the results depend on the processing

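No member was called in BLZ945 tdT+ against vehicle tdT+ cells under any alternative run. Between tdT- and BLZ945 tdT+ cells, 1 of 10 was called with the letter of the mouse label as covariate and 1 of 10 with the mouse as replicate block (Psmb8 in both), and 2 of 10 without tdT- libraries F2 and M1, an alternative added after seeing the data (H2-K1 and H2-D1). Omitting single libraries gave 0 to 2 calls (B2m without BLZ945 tdT+ M2, H2-D1 and Psmb8 without tdT- F2). Between tdT- and vehicle tdT+ cells, 2 of 10 were called without F2 and M1 (H2-K1 and H2-D1), and omitting single libraries gave 0 to 1 (H2-D1 without F2). The cause of these changes was not tested. No ratio test and no interaction of a member changed its side of the threshold. A single ratio could not pass after adjustment over 9 tests, however, and the paired sign-flip test cannot give a p below 0.125. Across all genes, DESeq2 called 868, 131 and 928 in the 3 comparisons in the order of the report, and edgeR 377, 9 (7 higher, 2 lower) and 446. For BLZ945 tdT+ against vehicle tdT+ cells the count was 256 with no filter, 325 with only both groups in the fit and 367 with the replicate block, where samples share a label but not a mouse. Of 1229 alternative values of the other named genes, 85 lost and 8 gained a call, and no called value changed its sign. The interaction with the letter was called for 0 genes by edgeR in both comparisons (984 and 449 at an unadjusted p under 0.05) and for 361 and 73 genes, none of them members, by DESeq2. Nlrc5, Rfx5 and Ciita had few counts in single libraries, and the cause was not tested.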
